A study of Hydra viridissima with 4 samples.

Results

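Isolated shared open regions are stretches of accessible chromatin that were called in all 4 ATAC-seq libraries of the green hydra Hydra viridissima and that had no other such region close by. Peaks of the 4 lists that shared at least 1 bp were merged into union regions, and a union region was shared when every list held a peak in it. An isolated region lay on a scaffold with at least 1000 union regions, had a shared region on both sides and was more than 50 kb from the nearest of them on each side. Members were therefore chosen by the positions of called peaks alone, and this rule found 183 isolated regions among 10256 shared and 117973 union regions, or 1.78% of the shared regions. Of the remaining shared regions, 9965 had shared neighbours on both sides but lay closer to one of them, and these are called the other shared regions here. A further 80 shared regions were on smaller scaffolds and 28 were the first or last of a large scaffold, so the rule could not keep them.

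In ATAC-seq the transposase Tn5 cuts DNA that is not wrapped in nucleosomes or covered by other proteins and adds sequencing adapters to it. Promoters and enhancers are the classes of sequence best known for such openness, and they tend to lie in groups along animal chromosomes. An open region far from any other is therefore of interest as a lone accessible site, although its function cannot be read from openness alone. Green hydra, a freshwater polyp, is known for unicellular green algae that live as symbionts within its endodermal cells.

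The libraries were made from whole animals of clone 2, with 2 libraries from aposymbiotic animals, which lack the algae, and 2 from green, symbiotic animals. All animals were large, had no buds or gonads, had last been fed 2 days before and were kept at 24 °C in sterile-filtered medium with penicillin and streptomycin. Each library came from a suspension of cells of 50 such animals, so it averages over all cell types of the body, and all of it is from 1 clone. The labels do not say how the aposymbiotic animals were obtained.

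The lists held 21481 and 78594 peaks in aposymbiotic replicates 1 and 2 and 31072 and 87128 peaks in symbiotic replicates 1 and 2. The total number of reads is unknown. The genome-wide background, in tags piled up at a position, was 9.39 and 16.7 in aposymbiotic replicates 1 and 2 and 6.80 and 13.5 in symbiotic replicates 1 and 2. A region had to pass in the short replicate 1 lists to count as shared, so these lists decide most of what is isolated. Date-like tags in the peak names, if read as dates, place the libraries of each replicate number on consecutive days.

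Distance chose the regions and is given only as a description. The distance to the nearest shared region had a median of 73478 bp and quartiles of 57021 and 109527 bp in isolated regions, against a median of 6414 bp in the other shared regions. Many isolated regions were near the limit, as 58 of the 183 lay no more than 10 kb beyond it. At the other end, 54 regions were more than 100 kb and 24 more than 200 kb away. Just inside the limit were a region of scaffold 6 at 7074793 to 7075179, with 50004 bp, one of scaffold 12 at 5820069 to 5820737, with 50125 bp, and one of scaffold 3 at 19869158 to 19869435, with 50218 bp. Just outside it were a pair of regions on scaffold 2, at 16376766 to 16376990 and at 16426965 to 16427244, that were 49974 bp apart, and a region of scaffold 3 at 19751159 to 19751573, with 49943 bp. Fold enrichments, the summit pileup over the background of the peak caller as the authors deposited it, did not separate these 6 regions. Those inside had 2.22 to 4.40 in aposymbiotic and 2.22 to 4.57 in symbiotic libraries, and those outside had 2.21 to 3.91 and 3.46 to 4.87.

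Many isolated regions followed each other along a scaffold. Read in order among the shared regions, the 183 fell into 131 runs, of which 100 held a single isolated region and 31 held several in succession, for 83 regions in all. Between the shared regions that bound them, these runs spanned 57.4 Mb, or 20.96% of the 273.9 Mb of large scaffolds up to the last peak. The longest run held 7 isolated regions over 2.10 Mb of scaffold 5, from 7005011 to 9109794. A run of 6 on scaffold 14 spanned 4.65 Mb, from 223594 to 4874786, and a run of 5 on scaffold 10 spanned 4.84 Mb, from 3024735 to 7865599.

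All 14 large scaffolds held isolated regions, from 5 on scaffold 11 to 37 on scaffold 1. Their share of the shared regions of a scaffold was highest on scaffold 14, at 6.06% (10 of 165), followed by scaffold 5 with 3.26% (20 of 614) and scaffold 1 with 3.12% (37 of 1187). It was lowest on scaffold 2, at 0.649% (8 of 1232). Scaffolds with fewer shared regions per Mb had a higher isolated share, with a Spearman correlation of -0.87 over the 14 scaffolds. Density of shared regions enters both measures, so this is a description. Scaffold 14 had 17.7 shared regions per Mb and scaffold 2 had 46.8.

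The flanks of isolated regions also held fewer peaks outside shared regions. The rule cleared these flanks of shared regions only, but the same lists decided which regions were shared. The test below is therefore not independent of the rule. Within 50 kb on either side, the mean number of such peaks was 2.78 around isolated and 4.95 around other shared regions in aposymbiotic replicate 1, and 16.6 and 31.99 in aposymbiotic replicate 2. In symbiotic replicate 1 it was 5.09 around isolated and 9.17 around other shared regions, and in symbiotic replicate 2 it was 19.1 and 35.8. Every library thus had between 0.519 and 0.561 times as many around isolated regions. On the log2 scale the difference was -0.88 ± 0.05 (SD, n = 4 libraries), lower in 4 of 4 libraries (two-sided exact sign-flip test over libraries, p = 0.13, the smallest that 4 libraries allow). The difference was -0.89 ± 0.08 in aposymbiotic and -0.88 ± 0.04 in symbiotic libraries (SD, n = 2 each), closer than the spread of replicates (exact permutation p = 1.0). These tests take the libraries as units, and the libraries share the same regions.

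**Figure D1:**
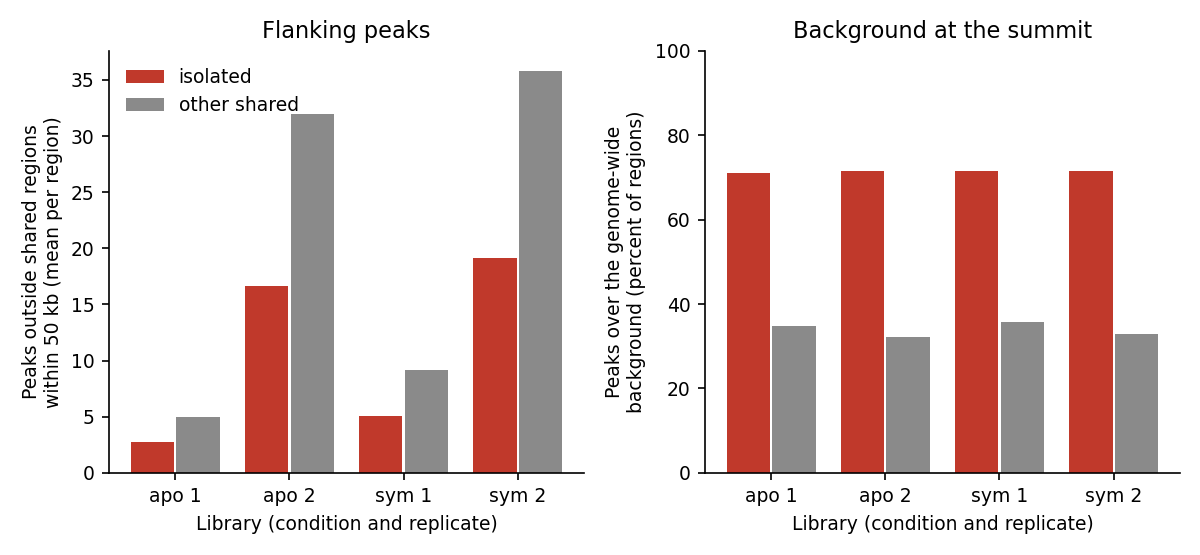
The left panel gives the mean number of peaks outside shared regions within 50 kb of a region, and the right panel the percent of regions whose strongest peak was called over the genome-wide background, for isolated (red) and other shared regions (grey) in each aposymbiotic (apo) and symbiotic (sym) library with its replicate number. Isolated regions had 0.519 to 0.561 times as many flanking peaks, and about 71% of them lay over the genome-wide background, in every library.

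Counted as merged regions, isolated regions had a median of 26 regions of fewer than 4 libraries in their flanks, against 53 for the other shared regions. The spread was wide, from 0 to 75 around isolated regions. At most 5 such regions were found around 34 isolated regions (18.6%), but around only 30 of the 9965 other shared regions (0.301%). The mix of flanking regions was alike, with 58.1% called in 1 library, 29.0% in 2 and 12.9% in 3 around isolated regions, and 56.5%, 29.5% and 14.0% around other shared regions. The region with the fullest flanks, 75 regions, was on scaffold 3 at 6773948 to 6774250. Its folds were low in replicate 1, at 2.35 in the aposymbiotic and 2.26 in the symbiotic library, and 2.70 and 3.85 in those of replicate 2.

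**Figure D2:**
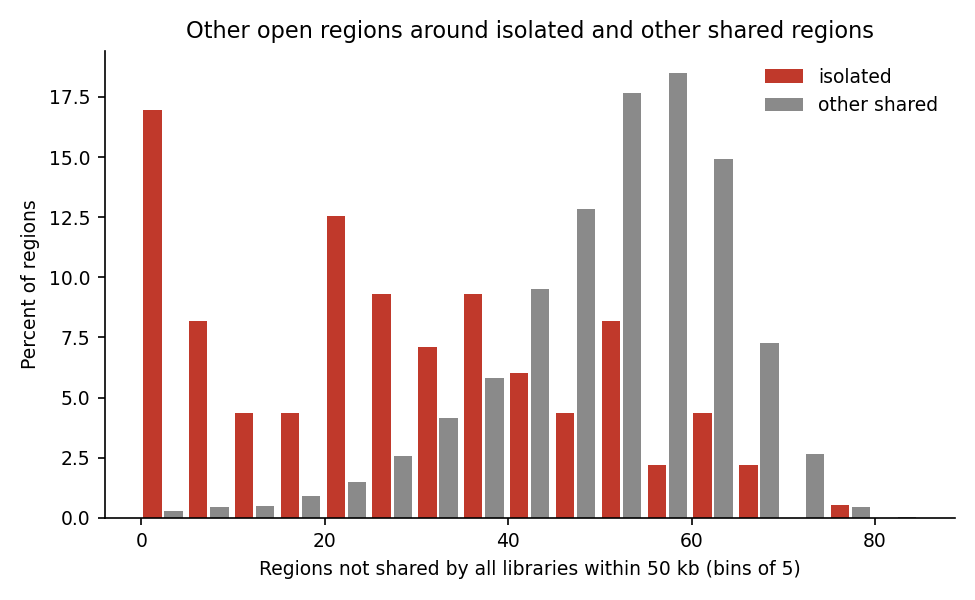
The number of regions not shared by all libraries within 50 kb is plotted on the horizontal axis in bins of 5, and the percent of isolated (red) and other shared regions (grey) on the vertical axis. Isolated regions reach from 0 to 75 with a group near 0, while the other shared regions gather around their median of 53.

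Most isolated regions had within 50 kb an open region that a single library lacked. When regions called in at least 3 libraries also counted as neighbours, 36 of the 183 (19.7%) were still more than 50 kb from the nearest, and the median distance was 8624 bp. With regions called in at least 2 libraries 27 were left, and with regions of any library 9. The flanks of isolated regions held 630 regions called in exactly 3 libraries, and 63.0% of these lacked a peak in aposymbiotic replicate 1, the shortest list. Elsewhere in the genome that library was the missing one in 62.4% of such regions, so the proportion was alike. Without aposymbiotic replicate 1 the rule found 80 isolated regions in the other 3 lists, and without symbiotic replicate 1 it found 113.

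Most isolated regions were called over the genome-wide background. The values of a peak return either that background or a local one, recovered from its fold and p-value. Backgrounds were not part of the rule, but the peaks it used were called against them, so the test below is not independent of it. The strongest peak was called over the genome-wide background in 71.0% of isolated and 34.7% of other shared regions in aposymbiotic replicate 1, and in 71.6% and 32.3% in aposymbiotic replicate 2. In symbiotic replicate 1 the shares were 71.6% of isolated and 35.8% of other shared regions, and in symbiotic replicate 2 they were 71.6% and 32.8%. The difference was 37.6 ± 1.77 percentage points (SD, n = 4 libraries), higher in 4 of 4 libraries (two-sided exact sign-flip test, p = 0.13, the smallest possible). It was 37.8 ± 2.10 points in aposymbiotic and 37.3 ± 2.14 points in symbiotic libraries (SD, n = 2 each; exact permutation p = 0.667). In 121 isolated regions the genome-wide background applied in all 4 libraries, and in 41 it applied in none. At like numbers of flanking regions of fewer than 4 libraries, the shares lay closer together. Those of isolated regions stayed higher in every group and library. With 0 to 9 flanking regions, they were 93.5% to 95.7% of isolated and 79.7% to 85.1% of other shared regions, depending on the library. With 10 to 26, they were 79.2% to 83.3% of isolated and 67.5% to 73.2% of other shared regions. They lay farthest apart with 27 to 42, at 72.1% to 79.1% of isolated and 53.0% to 54.1% of other shared regions. With 43 or more, they were 28.3% to 39.1% of isolated and 25.3% to 30.2% of other shared regions. These differences within groups were not tested.

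In median fold the 183 isolated regions were close to the other shared regions. Their median fold was 2.89 and 2.92 in aposymbiotic replicates 1 and 2, against 2.98 and 3.02 in the other shared regions. The symbiotic libraries had 3.34 and 3.56 in isolated regions, against 3.48 and 3.47. The log2 ratio was -0.03 ± 0.04 (SD, n = 4 libraries), lower in 3 of 4 (exact sign-flip p = 0.25), and its direction turned under several other settings. It was 0.18 for the 54 regions beyond 100 kb, higher in 4 of 4 libraries (exact sign-flip p = 0.13). Summits were lower in tags, with medians of 30 and 53 against 34 and 61 in aposymbiotic replicates 1 and 2, and 26 and 53 against 30 and 58 in symbiotic replicates 1 and 2.

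With all 4 libraries, the difference in peak width between isolated and other shared regions was smaller than its spread between libraries. The median width of the strongest peak was 184 and 230 bp in isolated and 197 and 279 bp in other shared regions in aposymbiotic replicates 1 and 2. The symbiotic libraries had 186 and 287 bp in isolated regions against 179 and 290 bp. The log2 ratio was -0.08 ± 0.14 (SD, n = 4 libraries; exact sign-flip p = 0.375). Leaving out aposymbiotic replicate 1 gave -0.17, leaving out symbiotic replicate 1 gave -0.35, and a distance of 100 kb gave -0.34. By condition, the width ratio was -0.19 ± 0.13 in aposymbiotic and 0.02 ± 0.05 in symbiotic libraries (SD, n = 2 each), and the exact permutation test of this difference gave p = 0.33, the smallest that 2 libraries against 2 allow. Several summits within a peak were seen in 20.2% and 49.2% of isolated regions in aposymbiotic replicates 1 and 2 and in 20.8% and 54.6% in symbiotic replicates 1 and 2. The difference from the other shared regions was -2.79 ± 2.99 percentage points (SD, n = 4 libraries; exact sign-flip p = 0.25). This difference moved to -9.46 points without aposymbiotic replicate 1, to -11.7 without symbiotic replicate 1, -8.90 at 100 kb and -0.174 with a -log10 q of 5 or more.

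**Figure D3:**
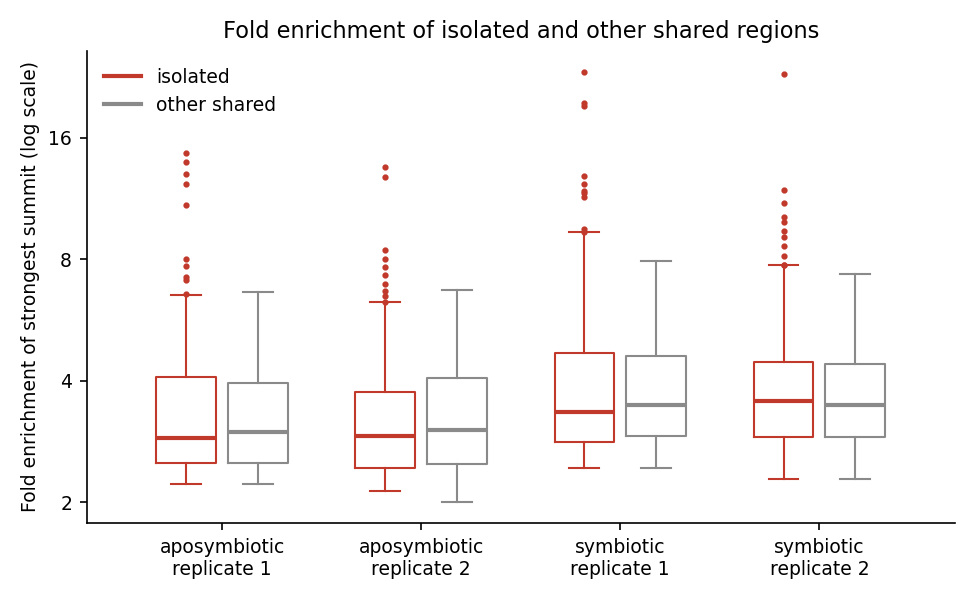
Fold enrichment of the strongest summit (log scale) is plotted for isolated (red) and other shared regions (grey) in each library. Boxes span the quartiles with the median as a line, whiskers the 5th to 95th percentile, and points are isolated regions above that range. The medians of the paired boxes lie close together, at 2.89 against 2.98 in aposymbiotic replicate 1 and 3.56 against 3.47 in symbiotic replicate 2, while single isolated regions reach 23.2.

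Within the isolated regions, strength went with how empty the flanks were. Percentiles of fold among all 10256 shared regions, ranked within each list and averaged over the 4 libraries, fell as flanks filled, with a Spearman correlation of -0.45 over the 183 regions. In single libraries it was -0.44 and -0.34 in aposymbiotic replicates 1 and 2 and -0.43 and -0.34 in symbiotic replicates 1 and 2. For tags at the summit in place of fold it was weaker, at -0.34 and -0.18 in the aposymbiotic and -0.36 and -0.22 in the symbiotic libraries. The regions come from the same libraries and neighbouring ones share flanks, so this describes these 4 libraries. Over the other shared regions the same correlation was -0.06, but few of those had empty flanks. The size of the correlation depended on the rule, with -0.07 for a distance of 25 kb, -0.63 for 100 kb and -0.11 for peaks of a -log10 q of 5 or more. It was -0.14 with lists cut to the shortest, -0.28 with summit windows of 200 bp, and -0.52 to -0.40 with a library left out.

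The isolated regions were split into 4 groups by the number of flanking regions, a split made after the values were seen, and the group with the emptiest flanks had the highest ranks. Its 46 members had 0 to 9 flanking regions and a median mean percentile of 77.9, against 40.0, 37.6 and 31.0 in the groups with 10 to 26, 27 to 42 and 43 to 75. Their median fold was 4.56 and 3.84 in aposymbiotic replicates 1 and 2 and 5.96 and 4.88 in symbiotic replicates 1 and 2. In the group with the fullest flanks it was 2.65 and 2.74 in the aposymbiotic and 2.95 and 3.23 in the symbiotic libraries. Tags at the summit differed in the same direction, with medians of 46.5 and 68 against 29 and 52 in aposymbiotic replicates 1 and 2, and 45.5 and 69.5 against 24.5 and 52 in symbiotic replicates 1 and 2. Both the pileup and its ratio to background were thus higher in the group with 0 to 9 flanking regions. Median tags in the groups with 10 to 26 and 27 to 42 were near those of the fullest group. They were 29 and 27 in aposymbiotic replicate 1 and 48.5 and 49 in aposymbiotic replicate 2. In symbiotic replicate 1 they were 25.5 and 24, and in symbiotic replicate 2 they were 50.5 and 52. The 74 other shared regions with 0 to 9 flanking regions had a median mean percentile of 64.6, against 45.0 for the 7863 with 43 or more. Their median tags lay closer, with 36 and 66 against 34 and 62 in aposymbiotic replicates 1 and 2. In symbiotic replicates 1 and 2 these were 31 and 61.5 against 30 and 58.

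Summits of the regions with empty flanks also agreed closely in position. The 4 summits of a region lay within a median of 24.5 bp in the group with 0 to 9 flanking regions, and within 127, 184 and 205.5 bp in the other 3 groups in rising order of flanking regions. The union regions were narrower too, with medians of 245, 409.5, 421 and 514.5 bp. Over all 183 isolated regions the median range of the 4 summits was 125 bp, against 88 bp in the other shared regions. A wide region gives summits more room to differ, so width and summit range are linked. In replicate 2, several summits were found in 28.3% of the emptiest group in either condition, against 63.0% of the aposymbiotic and 69.6% of the symbiotic peaks in the fullest group. In replicate 1 the shares were 21.7% against 28.3% in the aposymbiotic and 26.1% against 23.9% in the symbiotic library. Median peak width there was 200 against 195 bp and 193.5 against 192 bp. In replicate 2 it was 170 against 299 bp in the aposymbiotic and 195.5 against 370 bp in the symbiotic library. The contrast in peak width was thus seen in the replicate 2 libraries alone.

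**Figure D4:**
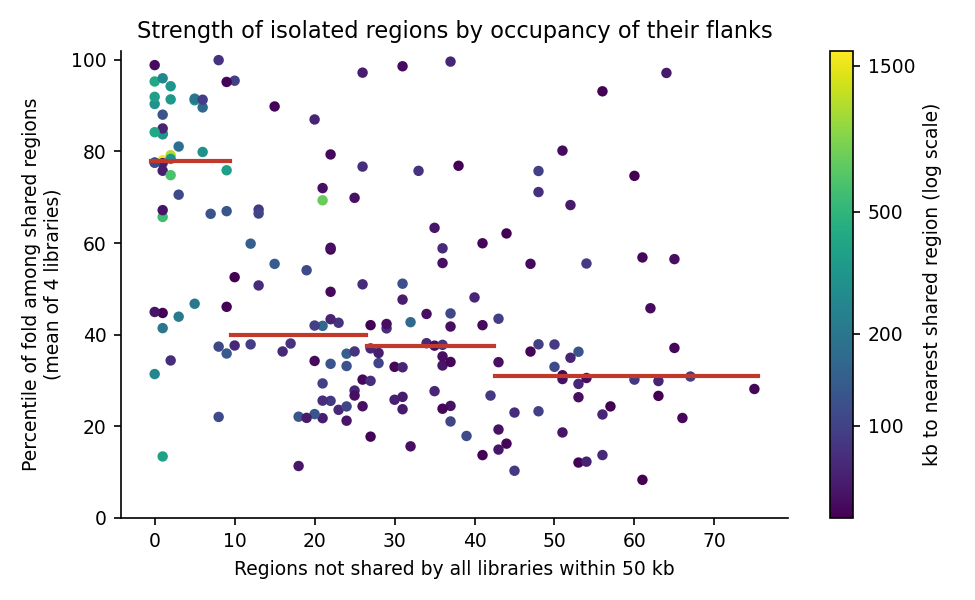
Each point is one of the 183 isolated regions, with the number of regions not shared by all libraries within 50 kb on the horizontal axis and the mean percentile of fold among shared regions on the vertical axis. Colour gives the distance to the nearest shared region in kb (log scale), and red lines are medians of 4 groups by flanking regions, at 77.9 for the emptiest and 31.0 for the fullest flanks.

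In 9 isolated regions, no other peak of any library was found within 50 kb. They lay on 4 scaffolds, were 122 to 305 bp wide, and were called over the genome-wide background in all 4 libraries. Their 4 summits fell within 6 to 36 bp of each other, and 8 of the 9 had a single summit in every library. The most remote was on scaffold 14 at 3039457 to 3039761, 324014 bp from the nearest peak of any library. Its fold was 5.77 and 6.22 in aposymbiotic replicates 1 and 2 (59 and 109 tags) and 11.4 and 9.06 in symbiotic replicates 1 and 2 (88 and 130 tags). The region was a strong peak in every list, and both symbiotic percentiles among shared regions (98.9 and 97.9) were above both aposymbiotic ones (91.4 and 93.0).

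Scaffold 4 held 3 of these 9 regions. At 17254683 to 17254908 the fold was 5.97 and 4.18 in aposymbiotic replicates 1 and 2 and 6.79 and 4.50 in symbiotic replicates 1 and 2. At 19411447 to 19411738 it was 5.29 and 5.09 in aposymbiotic and 8.97 and 7.75 in symbiotic replicates 1 and 2. At 18292109 to 18292230, the narrowest of the 9, it was 3.08 and 4.30 in aposymbiotic and 6.15 and 5.95 in symbiotic replicates 1 and 2. The first of the 3 overlapped between conditions in percentile, and in the other 2 both symbiotic libraries were higher.

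Scaffold 1 held 2 more, on which the conditions overlapped. At 40028301 to 40028548 the fold was 4.81 and 5.93 in aposymbiotic and 8.97 and 5.67 in symbiotic replicates 1 and 2. At 6314927 to 6315198 it was 14.6 and 7.29 in aposymbiotic and 19.5 and 11.0 in symbiotic replicates 1 and 2, which makes it also one of the strongest isolated regions. On scaffold 14 at 2049738 to 2049980 the folds separated the replicate numbers, with 6.16 and 3.28 in aposymbiotic and 12.3 and 3.74 in symbiotic replicates 1 and 2. Not all lone regions were strong. On scaffold 5 at 8111548 to 8111762 the fold was 3.27 and 2.20 in aposymbiotic and 3.46 and 2.28 in symbiotic replicates 1 and 2, and at 567220 to 567452 it was 3.46 and 2.15 in aposymbiotic and 2.95 and 4.57 in symbiotic replicates 1 and 2.

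The 5 regions farthest from a shared neighbour were of middling to high rank. The most distant was on scaffold 10 at 6059978 to 6060172, with 1763738 bp of scaffold free of shared regions before it and 1679824 bp after it. It was 195 bp wide, had 1 other region in its flanks, and its fold was 4.43 and 3.28 in aposymbiotic and 7.05 and 4.77 in symbiotic replicates 1 and 2. The next shared region before it, on scaffold 10 at 4295883 to 4296239, was also isolated, by 1100721 bp. Its fold was 6.45 and 3.73 in aposymbiotic and 5.77 and 4.01 in symbiotic replicates 1 and 2, so the libraries differed by replicate number more than by condition.

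The other 3 of these regions were on scaffolds 1, 5 and 6. On scaffold 1 at 24666739 to 24667272, isolated by 744381 bp, 21 regions of fewer libraries lay in the flanks, the nearest 118 bp away. Its fold was 3.11 and 4.95 in aposymbiotic and 4.36 and 3.96 in symbiotic replicates 1 and 2. It was thus remote from shared regions but not from open chromatin as such. On scaffold 5 at 1178862 to 1179066, isolated by 611409 bp, the fold was 3.66 and 3.73 in aposymbiotic and 4.74 and 5.05 in symbiotic replicates 1 and 2. On scaffold 6 at 9980615 to 9980927, isolated by 562078 bp, it was 4.43 and 3.22 in aposymbiotic and 4.87 and 3.39 in symbiotic replicates 1 and 2. The scaffold 5 region was higher in both symbiotic libraries by percentile, and the scaffold 6 region overlapped between conditions.

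Taking the lowest of its 4 percentiles, the strongest isolated region was on scaffold 12 at 9321122 to 9321707, 81997 bp from its nearest shared neighbour. Its fold was 13.95 and 13.6 in aposymbiotic replicates 1 and 2 (144 and 239 tags) and 23.2 and 22.97 in symbiotic replicates 1 and 2. Tags at the summit were 185 in symbiotic replicate 1. For symbiotic replicate 2 no tags are given, because the solved background was 0.948 times the genome-wide one, and the solution is not reliable. The next, on scaffold 9 at 3653762 to 3654455, had 12.98 and 12.8 in aposymbiotic and 12.9 and 11.9 in symbiotic replicates 1 and 2. On the first the symbiotic libraries ranked higher and on the second the aposymbiotic ones, although all 8 values were within the top 1% of shared regions. On scaffold 11 at 13810054 to 13810560 the fold was 10.9 and 7.63 in aposymbiotic and 11.8 and 10.2 in symbiotic replicates 1 and 2. The other strong regions, beside the one of scaffold 1 described above, lay at 5782709 to 5783093 of scaffold 9, 7854157 to 7854694 of scaffold 5 and 12834843 to 12835511 and 13917052 to 13917387 of scaffold 2. Across these 4, folds ranged from 5.60 to 8.42 in aposymbiotic and from 7.82 to 9.89 in symbiotic libraries.

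Between aposymbiotic and symbiotic animals, the strength of isolated regions differed by less than the spread of replicates. The median percentile of fold among shared regions was 45.7 and 45.96 in aposymbiotic replicates 1 and 2 and 45.1 and 52.7 in symbiotic replicates 1 and 2. The group means were 45.8 ± 0.165 in aposymbiotic and 48.9 ± 5.35 in symbiotic libraries (SD, n = 2 each), a difference of -3.03 points (two-sided exact permutation p = 1.0). The symbiotic libraries lay on either side of the aposymbiotic ones. The smallest p open to 2 libraries against 2 is 0.33, so this test could not detect a shift of any size.

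Of the 183 isolated regions, 31 (16.9%) ranked higher in both aposymbiotic than in both symbiotic libraries, where 19.7% of all shared regions did so. Another 40 (21.9%) ranked lower in both aposymbiotic libraries, against 19.6% of all shared regions. With all 4 libraries both shares were near the background and are no result about isolated regions. Among the 80 regions isolated without aposymbiotic replicate 1, 13 (16.3%) ranked higher in aposymbiotic replicate 2 than in both symbiotic libraries, against 32.6% of the regions shared by these 3 libraries, and 36 (45.0%) ranked lower, against 32.8%. The shares thus lay farther from the background without that library. By replicate number, 38 isolated regions (20.8%) ranked higher in both replicate 1 than in both replicate 2 libraries, against 16.9% of all shared regions. Those ranked lower were 31 (16.9%), against 16.5%. In the group with 0 to 9 flanking regions, 3 of 46 (6.52%) ranked higher in both aposymbiotic libraries and 11 (23.9%) in both symbiotic ones. Of the same 46, 13 ranked higher in both replicate 1 libraries and 4 in both replicate 2 ones, so the replicate numbers were split as well. These splits were seen after the groups were formed and were not tested.

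**Figure D5:**
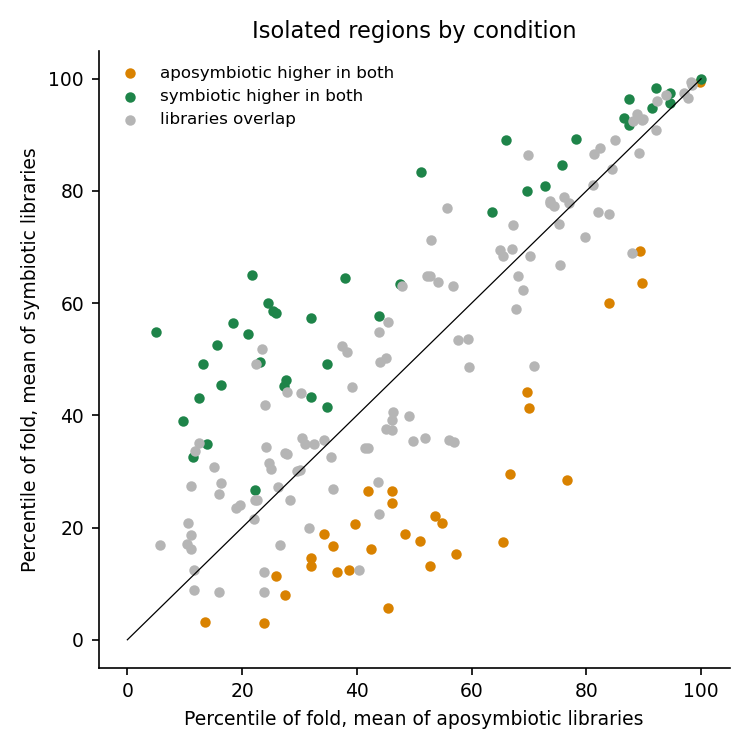
Each point is one of the 183 isolated regions, with its mean percentile of fold among shared regions in the 2 aposymbiotic libraries on the horizontal axis and in the 2 symbiotic libraries on the vertical axis. Orange points (31) ranked higher in both aposymbiotic libraries, green points (40) in both symbiotic ones, and in grey points the libraries overlapped; the line marks equal percentiles.

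The isolated regions with the clearest separation towards aposymbiotic animals were of moderate strength. On scaffold 14 at 2252303 to 2252443 the percentile was 79.5 and 51.4 in aposymbiotic and 15.2 and 19.6 in symbiotic replicates 1 and 2, with folds of 4.33 and 3.05 against 2.69 and 2.77. Tags at its summit were 44 and 53 in aposymbiotic and 20 and 39 in symbiotic replicates 1 and 2. On scaffold 1 at 32638454 to 32638854 the percentile was 57.2 in each aposymbiotic library and 5.27 and 25.4 in symbiotic replicates 1 and 2. Tags at this summit were 32 and 56 in aposymbiotic and 18 and 41 in symbiotic replicates 1 and 2. The fold in symbiotic replicate 1 was 2.43, and the lowest fold over the genome-wide background in that list was also 2.43. In both regions the percentiles of the conditions did not overlap, with aposymbiotic libraries higher, because the regions were chosen for such a gap. The remaining 3 lay at 7561289 to 7561759 of scaffold 14, 2531514 to 2531731 of scaffold 10 and 14605462 to 14605793 of scaffold 1. Their percentiles ranged from 47.8 to 76.0 in aposymbiotic and from 18.2 to 32.0 in symbiotic libraries.

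Towards symbiotic animals the clearest separation was on scaffold 4 at 11599530 to 11600057. The percentile was 24.0 and 19.5 in aposymbiotic and 69.1 and 60.9 in symbiotic replicates 1 and 2, with folds of 2.502 and 2.37 against 4.23 and 3.80. Its tags at the summit were 25 and 41 in aposymbiotic and 32 and 54 in symbiotic replicates 1 and 2. Each symbiotic library nevertheless had a lower background than the aposymbiotic library of the same number. A second region of scaffold 4, at 15849758 to 15850555, had percentiles of 17.2 and 14.0 in aposymbiotic and 48.6 and 56.4 in symbiotic replicates 1 and 2. Every symbiotic percentile was above every aposymbiotic one in both regions, because they were chosen for such a gap. The other 3 lay at 5701212 to 5701828 of scaffold 7, 19778490 to 19778732 of scaffold 1 and 1544595 to 1545328 of scaffold 3. Their percentiles ranged from 15.5 to 25.2 in aposymbiotic and from 45.1 to 63.8 in symbiotic libraries. Single regions were given no test, because each list was called separately and each group had 2 libraries.

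The widest isolated region separated the replicate numbers and not the conditions. It covered 1887 bp of scaffold 10 at 7739997 to 7741883. Its fold was 12.3 and 2.20 in aposymbiotic replicates 1 and 2 (127 and 38 tags) and 19.2 and 3.60 in symbiotic replicates 1 and 2 (149 and 51 tags). Both replicate 1 libraries placed it at a percentile of 99.9 among shared regions, and those of replicate 2 at percentiles of 11.7 (aposymbiotic) and 54.1 (symbiotic). Peaks within 50 kb of it followed the same split, with 6 and 0 in aposymbiotic replicates 1 and 2 and 7 and 0 in symbiotic replicates 1 and 2, although replicate 2 lists were longer. A difference in preparation between the replicate numbers was not tested.

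The next widest isolated regions differed in shape. On scaffold 5 at 16636309 to 16637937, 1629 bp wide, the fold was 4.68 and 6.47 in aposymbiotic and 7.34 and 7.02 in symbiotic replicates 1 and 2. It held 8 and 10 summits in aposymbiotic and 8 and 6 in symbiotic replicates 1 and 2. On scaffold 8 at 13007108 to 13008623, 1516 bp wide, the fold was 2.60 and 2.66 in aposymbiotic and 3.84 and 3.60 in symbiotic replicates 1 and 2. The scaffold 5 region was a broad, many-peaked stretch of openness in each library, whereas the strongest peak of the scaffold 8 region was 125 bp wide in aposymbiotic replicate 1 and at least 518 bp in the other 3 libraries.

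Ranks of isolated regions agreed between libraries about as well as those of other shared regions. Over the isolated regions the Spearman correlation of fold was 0.71 between the aposymbiotic and 0.60 between the symbiotic libraries, and it was 0.67 between the libraries of replicate 1 and 0.64 between those of replicate 2. Libraries that differed in condition and number correlated at 0.54 and 0.63. Over the other shared regions the same 6 correlations were 0.75, 0.67, 0.69, 0.68, 0.60 and 0.71, so each was somewhat higher there. The pairs share regions and libraries, and the values are a description.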

How the data were processed

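ATAC-seq reads of 4 libraries were processed by the authors, and the deposited file of each library is a narrowPeak list. The submitters' processing notes name MACS3 3.0.4, Bowtie2 2.5.4, Trim Galore 0.6.10 and deepTools without their roles. Settings and genome build: not given in the sources used here. Hence regions are named by scaffold and position, counted from 1, and no sequence was read. Per the file contents, the deposited lists give a fold (ratio of summit pileup plus 1 to background plus 1), a -log10 p-value and q-value, and a score of 10 times the -log10 q. All q-values were below 0.01.

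Lines of the same peak were joined, keeping the strongest summit. Whole pileups and backgrounds were solved from fold and p with Poisson probabilities. The solution was within a tolerance of 0.001 for at least 99.9966% of the peaks of each list. Percentiles were ranked within a list over the same shared regions. Comparisons took each library as a unit, with exact sign-flip tests over 4 libraries or exact permutation tests of 2 against 2. The labels call the replicates biological, but nothing says that they came from separate cultures, so p-values measure the spread between these libraries. Depth is unknown, and tags carry counting error.

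The members, rules and lists were chosen with earlier results of these data known. The regions named are the 8 strongest by lowest percentile over the 4 lists, the 5 farthest, the 3 on either side of the limit, the 5 with the widest gap between conditions in each direction, the 3 widest, and those with the most and the fewest flanking regions. Computations ran in scipy 1.17.1, pandas 2.3.3 and numpy 2.4.6 under Python 3.11.15, and the procedure was tested on simulated lists.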

Additional observations from a re-analysis of the deposited data

Results flagged for a closer look

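Shared regions of the smaller scaffolds, which no comparison above used, also held isolated regions. Of 65 shared regions there with shared neighbours on both sides, 30 were more than 50 kb from the nearest, and they lay on 4 scaffolds. Their median fold was 3.37 and 3.08 in aposymbiotic replicates 1 and 2 and 4.80 and 3.77 in symbiotic replicates 1 and 2, and their median mean percentile among shared regions was 60.2. The most remote was on scaffold 15 at 8774786 to 8774953, 953373 bp from its nearest shared neighbour, with folds of 5.97 and 5.09 in aposymbiotic and 5.89 and 7.54 in symbiotic replicates 1 and 2. They are given because they lie outside the rule, and no difference was tested.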

How the results depend on the processing

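Flanking peaks and background share kept their direction under every alternative run, with log2 ratios of flanking peaks from -2.19 to -0.20 and background differences from 12.8 to 56.9 points. The number of isolated regions depended on the rule, with 925 at a distance of 25 kb, 54 at 100 kb, 504 with a -log10 q of 5 or more, 408 with lists cut to the shortest, and 80 to 180 with a library left out. Without aposymbiotic replicate 1 there were 80 and without symbiotic replicate 1 there were 113.

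The log2 ratio of fold turned positive at 25 kb (0.0139), 100 kb (0.18), with a -log10 q of 5 or more (0.0279), lists cut to the shortest (0.000298), summit windows of 200 bp (0.0133) and means for medians (0.0418), and leaving out a library gave -0.0151 to 0.25. The rank difference between aposymbiotic and symbiotic libraries turned to 0.417 at 25 kb and 1.54 with summit windows, and ran from -3.06 to 6.82 with a library left out (2.33 without aposymbiotic replicate 2 and 6.82 without symbiotic replicate 1). The causes of these changes were not tested.

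Each count of regions ranked higher in both aposymbiotic libraries is given with its share of the isolated regions and the share of all shared regions. It was 197 at 25 kb (21.3% against 19.7%), 5 at 100 kb (9.26% against 19.7%), 90 with the stricter q (17.9% against 20.9%), 72 with lists cut to the shortest (17.6% against 20.04%) and 18 by percentile among all peaks (9.84% against 8.79%). Counts ranked lower were 184 at 25 kb (19.9% against 19.6%), 12 at 100 kb (22.2% against 19.6%), 103 with the stricter q (20.4% against 20.3%) and 83 with lists cut to the shortest (20.3% against 20.02%). With a library left out, 13 to 59 ranked higher (16.3% to 35.4%, against 32.6% to 35.7%) and 36 to 77 lower (31.9% to 45.0%, against 32.8% to 36.2%). The lowest share ranked higher and the highest ranked lower were both without aposymbiotic replicate 1, and without symbiotic replicate 2 the shares were 29.2% higher and 43.3% lower.

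With the replicate block, comparing libraries within a number, 44 regions (24.04%, against 28.2% of all shared regions) were higher and 65 (35.5%, against 28.7%) lower in aposymbiotic animals, and the rank difference stayed at -3.03 (exact p = 1.0). Deviations of same-numbered libraries correlated at 0.128 over all shared and 0.41 over isolated regions. No label states that a number marks a shared batch, and what the date-like tags mark is not known. Width and summit differences kept their direction, from -0.35 to -0.02 (log2) and from -11.7 to -0.174 points. The correlation of flanking regions with rank, and whether named regions stay isolated, were examined under alternatives added after seeing the data, and 18 to 38 of the 38 named regions stayed isolated. Depth is unknown and genes and sequences were not used here.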
